A study of Mus musculus with 8 samples.

Results

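Testes in which Dmrt1 had been deleted with Sf1-Cre (4 arrays) were compared across the genome with control testes (2 arrays), which is 6 of the 8 arrays of the series. All mice were males at postnatal day 28 on a mixed C57BL6/6J and 129 background, and all were Dmrt1 flox/flox, the controls included. Control mice carried no Cre. Sf1-Cre mice also carried Cre recombinase driven by SF1, the product of Nr5a1, which the labels describe as giving a Sertoli cell knockout. Nr5a1 is also known to be active in steroid-producing cells, so the deletion need not be limited to Sertoli cells. The controls lacked Cre as well as the deletion, so effects of the recombinase and of the lost gene cannot be told apart. Total RNA of whole testes was labelled with biotin and hybridised to 1-colour oligonucleotide arrays, 1 array per biological replicate. The labels do not say whether an array held 1 animal or a pool. The third group, deleted with Dhh-Cre (2 arrays), entered the fit only to estimate the spread.

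DMRT1 is a transcription factor with a DM domain, made by Sertoli cells and by male germ cells before meiosis. In Sertoli cells, which nurse germ cells within the seminiferous tubule, it is known to hold the male identity of the cell, and its loss is known to let genes of the ovarian granulosa cell be expressed. In the testis most RNA comes from germ cells in and after meiosis. During meiosis the X and Y chromosomes are silenced, and many widely used X-linked genes have an autosomal relative that takes over in spermatocytes and spermatids.

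The Dmrt1 level (log2 of the intensity, a scale used for all levels here) was 8.50 and 8.76 in controls against 7.10, 7.89, 7.63 and 7.53 in Sf1-Cre testes. Every Sf1-Cre array lay below both controls, as in 36% of all tested genes. The log2 fold change, Sf1-Cre minus control, was -1.09 ± 0.25 SE (limma, adjusted p = 0.00375, 0.000024 to 0.0378 over the alternatives tried; -2.79 with housekeeping centring). Whether the single Dmrt1 probe set lies within the deleted stretch is unknown here, and germ cell RNA adds to its signal.

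Markers of several cell types differed between the groups. All 12 spermatid markers and 10 of 12 spermatocyte markers were lower in the Sf1-Cre arrays, while 8 of 11 Sertoli, 5 of 6 Leydig, 6 of 6 endothelial, 11 of 12 macrophage and 10 of 10 tested granulosa markers were higher, beside 46.6% of all tested genes. Of these, 8 granulosa and 4 endothelial markers had control means under log2 4 and were tested only because other arrays reached that level. With housekeeping centring 1 Sertoli marker was called higher and 7 lower, so the direction of that list turned with the scale. On the centred scale 1 Leydig, 4 endothelial, 9 macrophage and 9 granulosa markers were higher, and 0, 1, 1 and 0 lower. Summed intensity of the spermatid markers was 78269 and 86358 on the control arrays against 1850.0 to 8007 on the mutant arrays, and that of the macrophage markers was 11900.0 and 16050.0 on the control arrays against 31448 to 37130.5 on the mutant arrays. Amh and Esr2 of the granulosa list, and Pecam1 and Cdh5 of the endothelial list, stayed under log2 4 on all 6 arrays. In bulk tissue fewer cells of a type and less RNA per cell cannot be told apart, which holds for every result below. The ratio of 3' to 5' signal of Actb was 4.44 and 4.89 in controls against 9.45 to 13.5 in Sf1-Cre arrays, and that of Gapdh 2.96 and 3.58 against 1.67 to 2.34. The part of RNA quality in the results was not tested. Pearson's r across probe sets was 0.994 between the controls, 0.980 to 0.994 among Sf1-Cre arrays and 0.825 to 0.887 between the groups.

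Most of the measured transcriptome differed between the groups. Of 13802 genes tested, 11020 (79.8%) passed at an adjusted p under 0.05, 6434 (46.6%) higher and 4586 (33.2%) lower in Sf1-Cre testes. The median change was 1.63 among called rises and -1.90 among called falls. Every Sf1-Cre array lay above both controls in 6895 genes and below both in 4966, together 85.9% of those tested. Most genes named below were picked among these, so the lack of overlap adds no support for them. A log2 difference of 1 or more was reached by 4798 higher and 3597 lower genes, one of 4 or more by 395 higher and 757 lower genes, and one of 6 or more by 24 higher and 222 lower genes. In 135 genes a level of log2 8 or above on both control arrays met a level under log2 4 on all 4 Sf1-Cre arrays, and the reverse held for 31 genes. At the other end, 596 genes had a 95% confidence interval of the log2 difference within 0.5 of 0, and 3051 within 1.

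Shares by level depend on which group sets the level, since the difference itself contains both. By control level, 84.5% rose of genes under log2 4 and 12.5% of those at log2 12 or above. By Sf1-Cre level, 6.81% rose of genes under log2 4 and 64.4% of those at log2 12 or above. No trend with level is read from either. The split also depends on the scale: centring each array on 13 housekeeping genes lowered every log2 difference by 1.70, moved the overall median from 0.34 to -1.36, and left 2043 genes called higher and 9424 lower. The housekeeping genes themselves, which include Pgk1, Tbp and B2m, rose by a median of 0.78 (10 of 13 higher) on the deposited scale. Each array was shifted by the median level of these genes, not by their median change. On the centred scale their own median was -0.92, with 3 higher and 8 lower, so the shift went beyond their median change. Class medians are given on both scales.

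**Figure D1:**
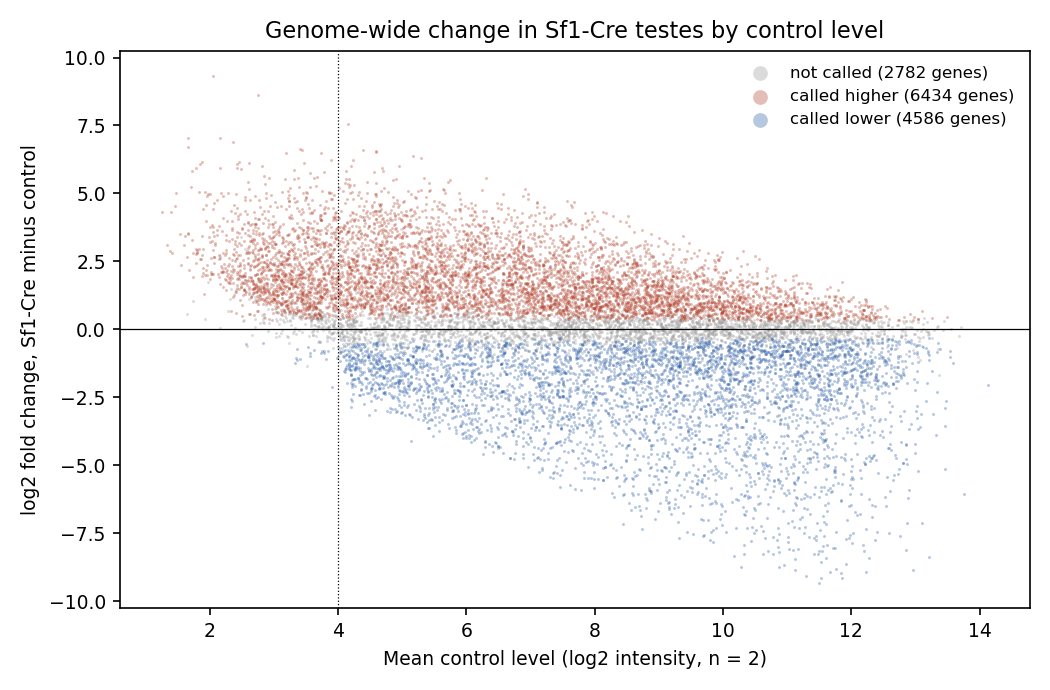
Each point is 1 of 13802 tested genes, placed by its mean control level (log2 intensity, n = 2) and its log2 fold change, Sf1-Cre (n = 4) minus control. Red points were called higher (6434), blue points lower (4586) and grey points neither (2782). The dotted line marks log2 4. The downward slope is in part built in, as the difference contains the control level.

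The genes that rose most included enzymes and transporters of lipid and iron metabolism. Heph, a ferroxidase that helps export iron from cells, lay at 4.31 and 4.02 in controls against 11.55, 11.75, 11.95 and 11.65 in Sf1-Cre testes, 189-fold higher (difference 7.56 ± 0.17 SE, adjusted p = 2.26e-07). Elovl6, which lengthens fatty acids, lay at 4.58 and 4.62 in controls against 10.52, 10.96, 11.53 and 11.68 in Sf1-Cre testes, 95.1-fold higher (6.57 ± 0.32 SE). Lpl, the lipase that frees fatty acids from lipoproteins, lay at 5.53 and 5.05 in controls against 11.38, 11.32, 11.85 and 11.75 in Sf1-Cre testes, 78.1-fold higher (6.29 ± 0.22 SE). In all 3 genes every mutant array lay far above both controls. Sfrp4, a secreted inhibitor of Wnt signalling, was at least 165-fold higher. Ephx2, a soluble epoxide hydrolase, was 91.5-fold higher, Mboat1, a lysophospholipid acyltransferase, at least 50.9-fold higher, and the AMP deaminase Ampd3 75.6-fold higher. Pdlim4, an actin-associated adaptor, was 82.1-fold higher and Trim2, a ubiquitin ligase, at least 69.1-fold higher.

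Car3 and Fabp4, both abundant in fat cells, varied more among the mutant arrays. Car3, a carbonic anhydrase, lay at 4.93 and 2.54 in controls against 11.02, 9.41, 9.01 and 11.40 in Sf1-Cre testes (a log2 difference of at least 6.21). Fabp4, a fatty acid binding protein, lay at 4.30 and 3.25 in controls against 10.44, 9.19, 8.43 and 10.26 in Sf1-Cre testes (a log2 difference of at least 5.58). In both, Sf1-Cre replicates 1 and 4 were the highest. The fat cell hormone gene Adipoq lay at 9.46 and 9.83 in controls against 8.29, 6.33, 5.88 and 8.46 in Sf1-Cre testes, highest among the mutants in the same pair of arrays but lower than in both controls, and Retn and Cidec were also highest there. Adipoq, Retn, Cidec and Lep were the 4 fat cell markers of a list made by hand, which did not hold Car3 or Fabp4. Of these 4, 3 were tested, 0 rose and 1 fell, and Lep stayed under log2 4 throughout. Their summed intensity was 747 and 956 on the control arrays against 91.1 to 532 on the mutant arrays. Most of the control sum came from Adipoq alone. The part of fat cells in these results was not tested.

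The deepest falls included genes of the sperm head, flagellum and late spermatid. Bpifa3 lay at 10.20 and 10.16 in controls against 1.84, 2.01, 1.71 and 1.83 in Sf1-Cre testes, at least 72.3-fold lower (adjusted p = 3.86e-07). Ccin, the calicin gene of the sperm head cytoskeleton, lay at 10.76 and 11.00 in controls against 3.16, 2.92, 2.49 and 2.12 in Sf1-Cre testes, at least 118-fold lower. Tnp2, a transition protein that replaces histones in spermatids, lay at 12.36 and 12.02 in controls against 4.75, 4.28, 3.68 and 3.48 in Sf1-Cre testes, 283-fold lower (-8.15 ± 0.87 SE). Bpifa3 and Ccin were under log2 4 on every mutant array, whereas Tnp2 stayed above it on replicates 1 and 2. Tex46, Nudt16l2, Spatc1, Ubqlnl and Wbp2nl followed, each between 80.0-fold and 130.2-fold lower as lower bounds.

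Noncoding transcripts as a whole moved mostly downwards. Of 669 tested long noncoding RNA genes, 149 rose and 449 (67.1%) fell, with a median of -2.0 (-3.70 with housekeeping centring), against 48.1% higher and 31.1% lower among 12957 protein-coding genes (median 0.41, -1.29 with that centring). Genes known only by a provisional symbol showed 26.0% higher and 61.6% lower of 1202 tested, with a median of -1.61 (-3.31). A list of noncoding genes with a name of their own, which also took in pseudogenes such as Ppp1r2-ps7, lay nearer to all tested genes. Of its 47 tested members 26 (55.3%) rose and 15 (31.9%) fell (median log2 difference 1.01, -0.69 with housekeeping centring). With that centring 10 rose and 27 fell. The largest fitted rise was also in a long noncoding RNA gene, Foxl2os, antisense to the granulosa factor gene Foxl2, which lay at 2.30 and 1.79 in controls against 11.19, 11.25, 11.71 and 11.33 in Sf1-Cre testes, at least 165-fold higher.

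The promoters of the genes that fell most were poor in CpG. Windows of 300 bases around the start site, 250 before and 50 after it, were at hand for 11101 tested genes from RefSeq (GRCm38.p6). The ratio of observed to expected CpG was 0.6 or above in 65.9% of them. Among genes called at log2 3 or beyond, it was 0.6 or above in 27.2% of 1008 lower genes (median ratio 0.282) and in 44.1% of 828 higher genes (0.556), against 77.5% of genes not called. Such promoters often belong to genes used in few tissues. Of the pair of calcineurin regulatory subunit genes, the widely used Ppp3r1 rose and the testis form Ppp3r2 fell (values below), and their upstream sequences differ in CpG. Both changed by less than log2 3, so neither belongs to the groups above. The large rises were also poorer in CpG than all tested genes, so Ppp3r1 does not stand for them. Bpifa3 is 1 of the large falls. The 250 bases before the start site are given 5′ to 3′ with each CpG in capitals. Ppp3r1 (chr11:17159048-17159297, plus strand) held 29 CpG, Ppp3r2 (chr4:49681984-49682233, minus strand) 9 and Bpifa3 (chr2:154130086-154130335, plus strand) 0.
Ppp3r1: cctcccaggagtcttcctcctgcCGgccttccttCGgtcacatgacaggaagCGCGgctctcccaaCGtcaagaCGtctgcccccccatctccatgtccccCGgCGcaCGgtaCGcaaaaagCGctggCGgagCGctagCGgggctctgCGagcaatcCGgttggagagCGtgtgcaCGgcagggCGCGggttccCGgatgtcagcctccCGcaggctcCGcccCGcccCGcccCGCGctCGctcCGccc
Ppp3r2: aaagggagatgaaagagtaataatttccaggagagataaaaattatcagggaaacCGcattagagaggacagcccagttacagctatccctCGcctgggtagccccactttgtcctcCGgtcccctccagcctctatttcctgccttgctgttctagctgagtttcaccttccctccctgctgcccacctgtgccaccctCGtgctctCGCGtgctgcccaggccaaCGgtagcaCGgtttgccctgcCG
Bpifa3: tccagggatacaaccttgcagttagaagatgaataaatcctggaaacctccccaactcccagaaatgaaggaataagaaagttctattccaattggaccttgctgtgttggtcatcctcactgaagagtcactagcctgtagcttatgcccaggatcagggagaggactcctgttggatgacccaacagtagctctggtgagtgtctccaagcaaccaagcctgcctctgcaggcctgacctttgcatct

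Short motifs were searched on both strands of the same 300-base windows. The interferon-regulatory element (GAAA, any 2 bases, GAAA), bound by IRF proteins, was in 6.16% of the windows of genes that rose by log2 3 or more (51 of 828), in 2.58% of those that fell as far, in 2.89% of all tested genes and in 3.49% of all 27025 promoters. The PU-box GAGGAAGT, bound by the myeloid factor SPI1, was in 4.35%, 2.58%, 2.83% and 3.28%. The core of the DMRT1 element, ACATTGT, was in 1.21% of the large rises, 3.87% of the large falls, 1.69% of all tested genes and 2.98% of all promoters. The letters of that core are rich in A and T, and the windows of large falls had a median GC content of 52.0%, below the median of all tested genes. The part of base composition in the motif shares was not tested. The cAMP response element TGACGTCA, bound by CREB and CREM proteins, was in 1.45% of the large rises, 2.58% of the large falls, 3.07% of all tested genes and 1.88% of all promoters. The shares for the NR5A site TCAAGGTCA were 0.483%, 0.794%, 0.351% and 0.407%, for the forkhead site GTAAACA 2.78%, 3.17%, 2.43% and 3.55%, and for the MYB site AACNGTT 3.74%, 4.46%, 3.46% and 4.36%. The X-box of RFX proteins (GTTNCC, any 2 bases, GGNAAC) was in 0 of 828 large rises, 0.794% of the large falls, 0.613% of all tested genes and 0.444% of all promoters. A match is a stretch of letters and not a measured binding site.

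5 genes called with large changes show where such matches lie. Trim30a, an interferon-induced ubiquitin ligase gene, was 14.9-fold higher, Lgals9, the galectin 9 gene, at least 13.8-fold higher, and Tnfrsf1b, a tumour necrosis factor receptor gene, at least 17.7-fold higher. Their upstream sequences (chr7:104465194-104465443, minus strand; chr11:78984925-78985174, minus strand; chr4:145246871-145247120, minus strand) are given with the interferon-regulatory element, on either strand, in capitals. Cylc1, an X-linked cylicin gene of the sperm head, was 66.4-fold lower, and its sequence (chrX:111110168-111110417, plus strand) has the DMRT1 core in capitals. Ccin (chr4:43983254-43983503, plus strand) has the cAMP response element in capitals.
Trim30a: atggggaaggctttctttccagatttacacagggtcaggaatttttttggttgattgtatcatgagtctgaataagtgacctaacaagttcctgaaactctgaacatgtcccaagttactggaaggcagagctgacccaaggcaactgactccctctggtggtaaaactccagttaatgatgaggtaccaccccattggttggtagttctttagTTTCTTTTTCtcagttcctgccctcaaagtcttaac
Lgals9: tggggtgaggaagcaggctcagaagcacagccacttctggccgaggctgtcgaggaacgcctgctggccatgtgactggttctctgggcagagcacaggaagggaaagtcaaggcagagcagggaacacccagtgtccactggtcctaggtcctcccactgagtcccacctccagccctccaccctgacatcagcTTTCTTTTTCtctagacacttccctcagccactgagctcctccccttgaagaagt
Tnfrsf1b: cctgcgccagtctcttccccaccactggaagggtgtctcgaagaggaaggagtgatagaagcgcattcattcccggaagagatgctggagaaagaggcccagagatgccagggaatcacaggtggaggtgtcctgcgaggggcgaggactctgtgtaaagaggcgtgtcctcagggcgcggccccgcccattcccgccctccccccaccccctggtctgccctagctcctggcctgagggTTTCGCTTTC
Cylc1: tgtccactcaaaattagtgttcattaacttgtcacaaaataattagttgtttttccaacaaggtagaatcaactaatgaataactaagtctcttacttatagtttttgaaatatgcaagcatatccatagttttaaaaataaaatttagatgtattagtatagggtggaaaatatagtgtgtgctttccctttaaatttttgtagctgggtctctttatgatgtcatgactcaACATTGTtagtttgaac
Ccin: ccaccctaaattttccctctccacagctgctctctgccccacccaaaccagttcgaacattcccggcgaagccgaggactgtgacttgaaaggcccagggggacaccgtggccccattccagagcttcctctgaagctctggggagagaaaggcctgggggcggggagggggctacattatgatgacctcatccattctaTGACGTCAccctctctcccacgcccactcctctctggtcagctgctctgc

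The match began 36 bases before the start site in Trim30a, 55 in Lgals9, 10 in Tnfrsf1b, 17 in Cylc1 and 50 in Ccin. The upstream sequences of Trim30a and Cylc1 held 0 CpG.

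Genes on the X chromosome rose more often than autosomal genes. Of 464 tested X-linked genes 334 (72.0%) rose and 90 (19.4%) fell, against 45.9% and 33.5% of 13248 autosomal genes. The median log2 difference was 1.58 on the X (-0.12 with housekeeping centring) and 0.31 on autosomes (-1.39), a gap that no centring of whole arrays can move. Per array, the median X-linked level lay below the median autosomal level by 1.14 and 1.21 in the controls, and by 0.29, 0.18, 0.15 and 0.07 in the Sf1-Cre arrays, so the groups did not overlap. Among genes at log2 4 or above in the controls the shares were 66.9% higher and 23.6% lower on the X, and 41.0% and 37.7% on autosomes. The smallest gap in medians was at control levels of log2 10 or above, where the X-linked median was -0.66 and the autosomal -0.71. At that level 43.8% of X-linked and 20.5% of autosomal genes rose. The spermatid and spermatocyte markers fell in the same arrays, and their part in this result was not tested.

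**Figure D2:**
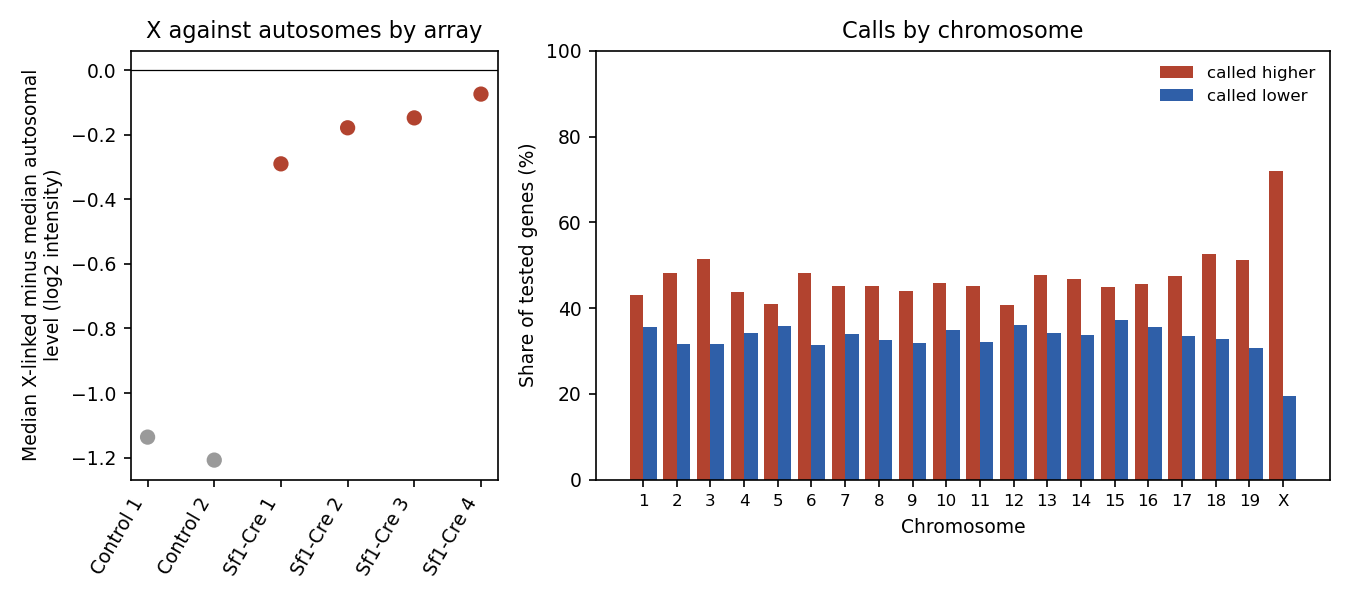
Left, the median level of 464 X-linked genes minus that of 13248 autosomal genes (log2 intensity) on each control (grey) and Sf1-Cre (red) array. Right, the share of tested genes called higher (red) and lower (blue) on each chromosome, where the X stands out with 72.0% higher.

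Named X-linked genes moved in both directions. Armcx6, of the armadillo-repeat family that associates with mitochondria, lay at 5.76 and 4.72 in controls against 9.91, 10.18, 10.39 and 10.88 in Sf1-Cre testes, 34.4-fold higher (5.10 ± 0.34 SE, adjusted p = 5.6e-06). It is 1 of 5 neighbours, Armcx4, Armcx1, Armcx6, Armcx3 and Armcx2, that were all called higher, by log2 2.03 to 5.10. Maob, a monoamine oxidase gene, was at least 10.6-fold higher and Slc9a7, a sodium-proton exchanger gene, at least 7.63-fold higher. Another X-linked stretch of 8 called neighbours, from Dnase1l1 to Ikbkg, rose by 2.27 to 4.55, and a stretch of 5 that includes the cancer-testis gene Ctag2 fell by 2.26 to 5.89. Provisional symbols aside, the largest X-linked falls were Ppp1r2-ps7, a phosphatase inhibitor pseudogene (at least 209-fold lower), Tsx (74.3-fold lower), Cylc1, the dual-specificity phosphatase gene Dusp21 (at least 16.7-fold lower) and Tex13a (43.9-fold lower). Cylc1 lay at 11.27 and 11.30 in controls against 6.28, 5.84, 4.48 and 4.32 in Sf1-Cre testes, with no overlap between the groups. Over all chromosomes, 11 stretches of at least 5 neighbouring genes moved in 1 direction by log2 2 or more, 8 upwards and 3 downwards, 5 of them on the X. One on chromosome 17 held 7 genes, cytochrome P450 genes of the Cyp4f cluster with Zfp871, Zfp799 and Zfp870 between them, all higher by 2.00 to 3.78.

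On the Y chromosome 4 of 8 tested genes rose and 4 fell. Kdm5d, a histone demethylase gene, lay at 5.17 and 4.59 in controls against 8.72, 8.54, 8.98 and 8.68 in Sf1-Cre testes (3.85 ± 0.21 SE), and Uty at 3.00 and 2.70 in controls against 4.95, 5.29, 5.64 and 5.40 in Sf1-Cre testes (a log2 difference of at least 1.32). Both are widely expressed and were higher on every mutant array. Eif2s3y and Uba1y, used by spermatogonia, differed by 1.02 (-0.68 with housekeeping centring) and 0.83 (-0.87 with housekeeping centring), the direction thus turning with the scale. Zfy2, a zinc-finger gene of spermatids, lay at 9.38 and 9.41 in controls against 5.95, 5.45, 5.02 and 5.10 in Sf1-Cre testes (-4.02 ± 0.26 SE). Orly, a noncoding gene, was at least 4.06-fold lower. Usp9y (-0.72, adjusted p = 0.0426) and Sry, the male-determining gene (at least 1.19-fold lower, adjusted p = 0.0342), were lower by little, and neither passed once control replicate 1 or control replicate 2 was left out (adjusted p 0.115 to 0.150).

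Some widely used genes and their testis-rich relatives moved apart. In 15 listed pairs, both genes were tested in 12; the widely used gene rose while the relative fell in 6, both fell in 2, and no testis-rich relative rose. With housekeeping centring 2 of these 6 pairs, Pdha1 with Pdha2 and Ppp3r1 with Ppp3r2, kept opposite calls. The heat-shock gene Hspa8 turned from 0.42 to -1.27, while its testis relative Hspa2 differed by -0.76; neither passed without control replicate 1. The widely used gene fell in 3 of the 12 pairs, in 1 of them alone: Tbp, of basal transcription, by -1.92, with its relative Tbpl1 at -0.30 and not called, though called at -0.93 with probe sets averaged. The widely used gene was X-linked in 6 pairs with that gene tested, and rose in 5 of these (2 with housekeeping centring), beside 72.0% of all X-linked genes. Pdha1, the X-linked E1 alpha subunit gene of pyruvate dehydrogenase, lay at 6.39 and 6.02 in controls against 9.61, 10.13, 10.14 and 10.08 in Sf1-Cre testes (3.78 ± 0.25 SE, adjusted p = 5.78e-06). Its retrogene Pdha2 lay at 11.58 and 11.35 in controls against 9.64, 8.93, 8.22 and 7.34 in Sf1-Cre testes (-2.93 ± 0.68 SE, adjusted p = 0.00424). The groups did not overlap for either gene, and they moved in opposite directions.

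Pgk1, a glycolytic kinase gene of the X, differed by 1.69 (-0.01 with housekeeping centring), and its retrogene Pgk2 by -2.45. Pgk1 is itself on the housekeeping list, so its value on that scale is partly built in. Cetn2 and its retrogene Cetn1, centrins of the centriole, differed by 1.76 and -1.44. The Cetn2 value was 0.06 with housekeeping centring and another Cetn2 probe set had the opposite sign, and Cetn1 missed the threshold without control replicate 1 or 2 and without Sf1-Cre replicate 3 or 4 (adjusted p 0.0503 to 0.110). Rbmx, an X-linked splicing factor gene, rose by 3.22. Cstf2, a polyadenylation factor gene, was 1.71 (0.01 with housekeeping centring) but 0.17 as the mean of its probe sets, which disagreed in sign, and its relative Cstf2t did not pass (-0.01, 95% confidence interval -0.31 to 0.29). Utp14a did not pass either, at 0.08 (-1.62 with housekeeping centring), while its retrogene Utp14b, known to be required for spermatogenesis, lay at 9.13 and 9.08 in controls against 7.13, 6.91, 6.73 and 6.74 in Sf1-Cre testes (-2.23 ± 0.20 SE).

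Some autosomal pairs moved apart too. Ppp3r1, the calcineurin B subunit gene, lay at 5.27 and 4.71 in controls against 7.63, 7.67, 7.81 and 8.11 in Sf1-Cre testes (2.82 ± 0.21 SE), and its testis form Ppp3r2 at 11.17 and 11.30 in controls against 10.27, 9.58, 9.06 and 8.52 in Sf1-Cre testes (-1.88 ± 0.50 SE, adjusted p = 0.00882, 0.0556 without control replicate 2). Capza2 encodes an actin capping protein and differed by 1.77, 0.07 with housekeeping centring. Its testis form Capza3 lay at 12.43 and 12.34 in controls against 8.84, 8.17, 6.81 and 6.49 in Sf1-Cre testes (-4.81 ± 0.98 SE), spread over more than 2 log2 units among the mutants.

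**Figure D3:**
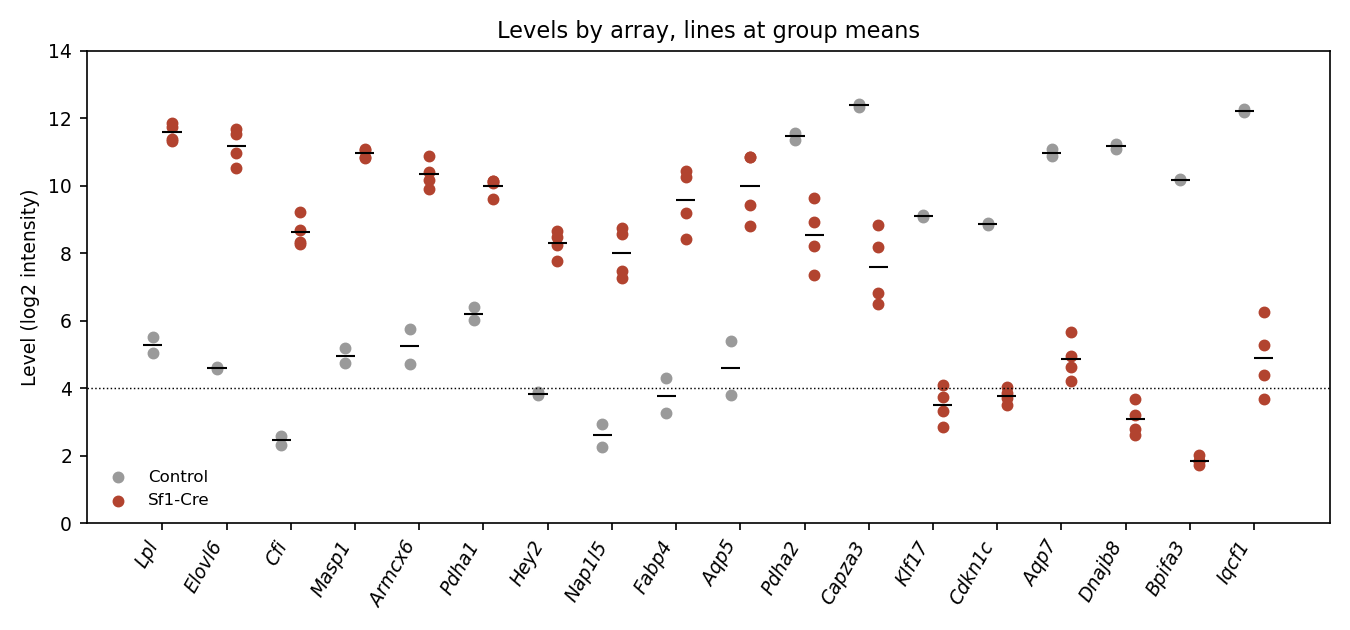
Level (log2 intensity) of 18 genes on 2 control (grey) and 4 Sf1-Cre (red) arrays, with lines at the group means and a dotted line at log2 4. In each gene the groups do not overlap, which the naming rule required of most of them and which held for 85.9% of all tested genes. The first 10 genes are higher and the last 8 lower in Sf1-Cre arrays.

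Gene classes were formed by symbol or by hand, and are described by how many of their tested members were called, beside 46.6% higher and 33.2% lower among all tested genes. Of 102 classes formed, 59 are described, chosen with the values known. These counts carry no test of the class itself. Class medians take differences as fitted, also for means under log2 4. With group means under log2 4 set to 4, the median of all tested genes was 0.24. It was then 1.36 for cytochrome P450, 2.27 for Toll-like receptor pathway and 1.61 for Adamts and Timp genes. For tumour necrosis factor genes it was 0.48 and for Hox genes 0.0. Each of these lies below the class median given below. Probe sets of 1 gene could disagree. Of called genes that the naming rule picked, 217 had a further probe set and 43 of these at least 1 of opposite sign, as had 1104 of 4248 (26.0%) among all called genes. Nearly all of those 43 were passed over in the text, where 2 of 59 (Cetn2 and Cstf2) have such a probe set, so the named genes understate the disagreement.

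Of the classes described, the IQ-motif and EF-hand genes had the lowest median. Among these genes, whose proteins bind calmodulin or calcium and include parts of the sperm flagellum, 0 of 25 tested members rose and 23 fell (median log2 difference -3.76, -5.46 with housekeeping centring). The class median level was 9.76 and 9.66 in controls against 7.98, 6.79, 6.17 and 6.11 in Sf1-Cre testes. Iqcf1 lay at 12.28 and 12.17 in controls against 6.25, 5.28, 4.38 and 3.68 in Sf1-Cre testes, 161-fold lower (-7.33 ± 0.89 SE), and Iqcf4 and Efcab1 were 60.3-fold lower and at least 18.3-fold lower. Among actin and actin-related genes 6 of 27 tested members rose and 15 fell (median log2 difference -0.67, -2.37 with housekeeping centring), the falls led by spermatid forms: Actrt3 was at least 139-fold lower, Actrt2 at least 80.5-fold lower and Actl11 at least 35.8-fold lower. Among tetratricopeptide-repeat genes, many of them intraflagellar transport or ciliary, 13 of 39 tested members rose and 22 fell (median log2 difference -0.74, -2.44 with housekeeping centring), with Ttc23l 32.7-fold lower. Leucine-rich repeat genes of the Lrrc series were split, as 13 of 42 tested members rose and 22 fell (median log2 difference -0.64, -2.33 with housekeeping centring): Lrrc69 was at least 98.8-fold lower and Lrrc8e, of the volume-regulated anion channel, at least 28.5-fold higher. Of WD-repeat genes 17 of 57 tested members rose and 23 fell (median log2 difference -0.12, -1.81 with housekeeping centring), with Wdr64 235-fold lower. Of the genes named only for family with similarity, 43 of 131 tested members rose and 71 fell (median log2 difference -0.68, -2.37 with housekeeping centring).

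Genes of the piRNA pathway, which silences transposons in germ cells through small RNAs, only fell: 0 of 23 tested members rose and 17 fell (median log2 difference -1.47, -3.17 with housekeeping centring), though 10 fell when control replicate 2 was left out. The largest falls were Kif17, a kinesin gene whose protein carries a partner of CREM in spermatids, at 11.05 and 10.91 in controls against 6.74, 6.06, 5.50 and 5.18 in Sf1-Cre testes (-5.11 ± 0.39 SE), Gtsf1l (-3.77 ± 0.96 SE) and the Tudor-domain gene Tdrd1 (-2.78 ± 0.49 SE). General RNA factors moved less. Of splicing factors of the Srsf and Hnrnp families 13 of 27 tested members rose and 0 fell (median log2 difference 0.20, -1.49 with housekeeping centring), and 3 fell when the probe sets of a gene were averaged. Of translation initiation factors 21 of 46 tested members rose and 7 fell (median log2 difference 0.33, -1.37 with housekeeping centring).

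Families of protein turnover genes held members that fell and members that rose. Of Asb genes, substrate adaptors of ubiquitin ligases, 2 of 15 tested members rose and 9 fell (median log2 difference -2.50, -4.19 with housekeeping centring). Asb17 lay at 12.90 and 12.88 in controls against 8.34, 7.35, 6.03 and 4.95 in Sf1-Cre testes (-6.22 ± 1.06 SE), Asb15 was at least 28.7-fold lower, and Asb13 was 42.5-fold higher. Without control replicate 1, or with values under log2 4 set to 4, 1 Asb gene was called higher. Of RING-finger genes 29 of 69 tested members rose and 24 fell (median log2 difference 0.07, -1.63 with housekeeping centring, and -0.24 with probe sets averaged), with the testis ligase genes Rnf133 182-fold lower and Rnf148 at least 83.0-fold lower. Of deubiquitinase genes 18 of 47 tested members rose and 16 fell (median log2 difference -0.0026, of either sign under the alternatives, and -1.70 with housekeeping centring), Usp44 being 119-fold lower and the interferon-induced Usp18 at least 5.44-fold higher. Of F-box genes 24 of 54 tested members rose and 18 fell (median log2 difference 0.16, -1.54 with housekeeping centring), Fbxo24 being at least 35.8-fold lower. Of kelch-like genes 15 of 29 tested members rose and 6 fell (median log2 difference 0.51, -1.19 with housekeeping centring): the spermatid gene Klhl10 was 30.7-fold lower and Klhl6, known from B cells, at least 12.6-fold higher. Of Trim genes 19 of 44 tested members rose and 16 fell (median log2 difference 0.43, -1.26 with housekeeping centring, and -0.13 with probe sets averaged), from Trim42 (at least 39.7-fold lower) to Trim56 (20.6-fold higher), which takes part in antiviral signalling.

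Chaperone families moved both ways too. Of Dnaj co-chaperone genes 12 of 42 tested members rose and 21 fell (median log2 difference -0.30, -2.0 with housekeeping centring). Dnajb8 lay at 11.24 and 11.09 in controls against 3.67, 3.19, 2.80 and 2.62 in Sf1-Cre testes, at least 143-fold lower, and Dnajb7 was 115-fold lower. Of heat-shock genes 14 of 27 tested members rose and 7 fell (median log2 difference 0.33, -1.37 with housekeeping centring), with 8 higher when control replicate 1 was left out and 9 without the 3 arrays high in Spink8. Hspa1l, a spermatid chaperone gene, was 245-fold lower and Hspb8, a small heat-shock gene, 27.8-fold higher.

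**Figure D4:**
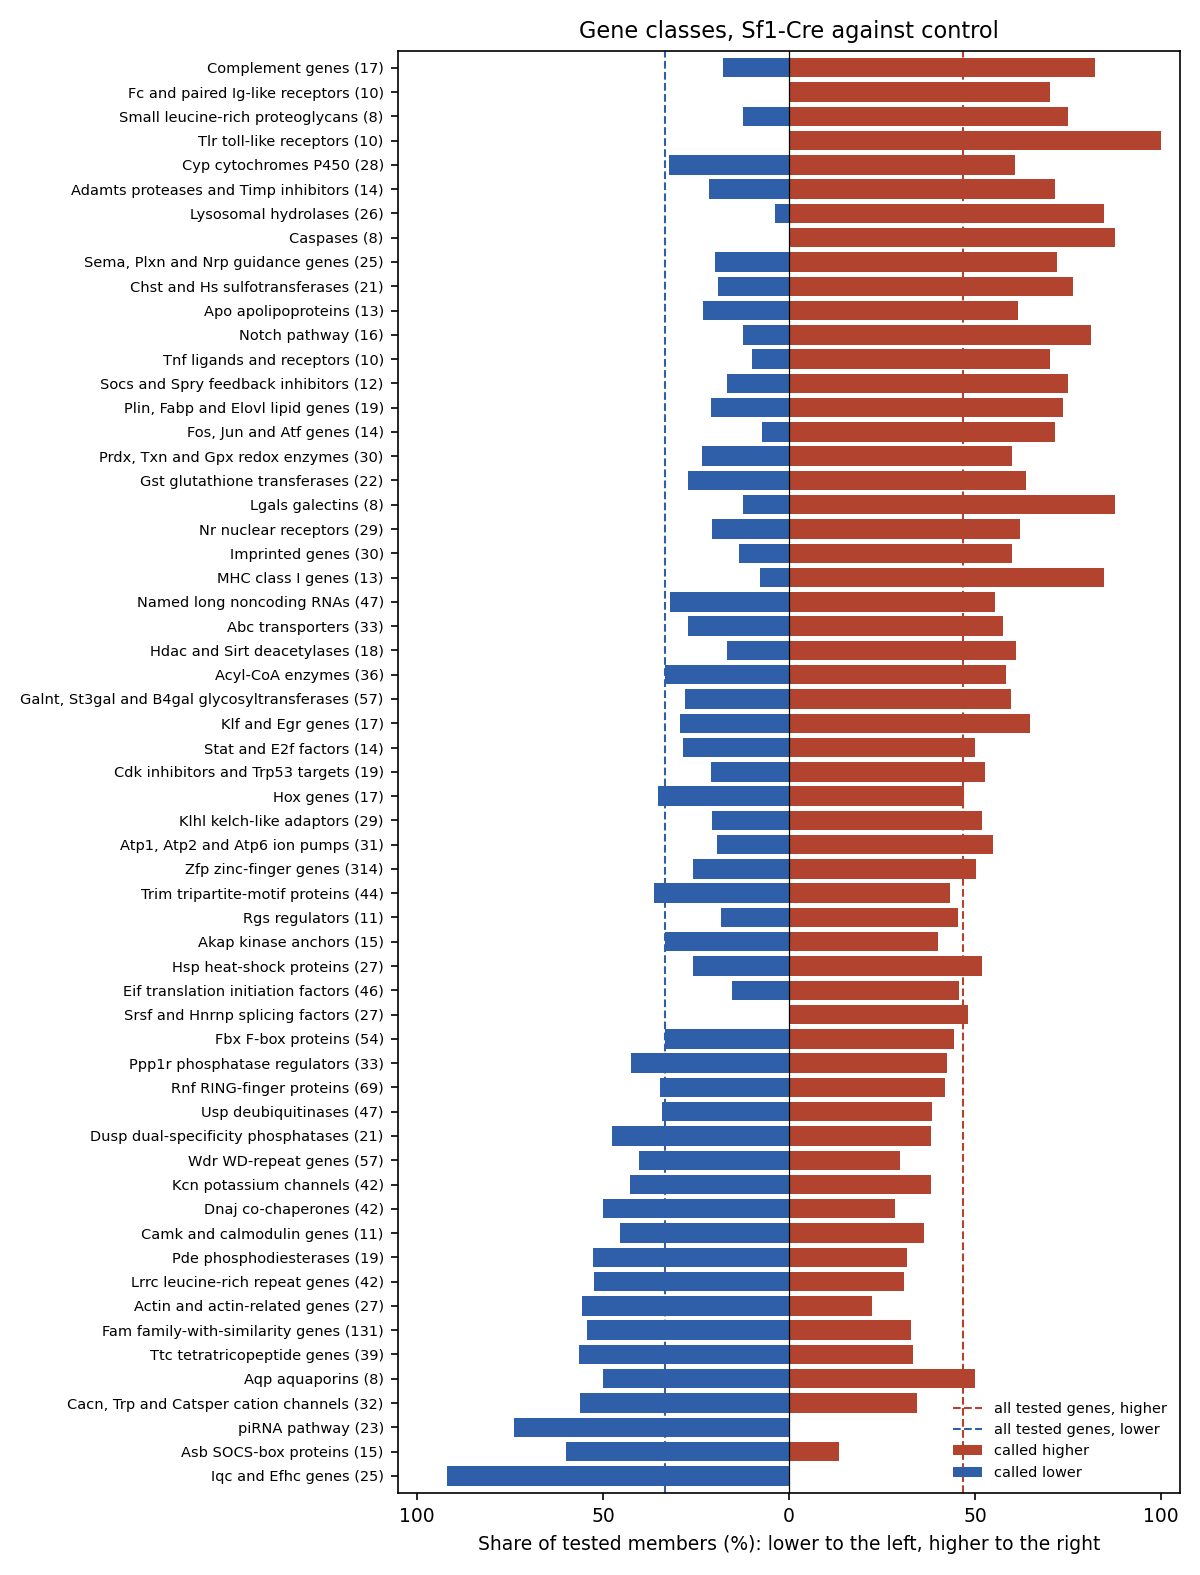
Share of tested members called higher (red, to the right) and lower (blue, to the left) in each gene class, ordered by median log2 fold change, with the number tested in brackets and dashed lines at the shares of all tested genes (46.6% and 33.2%). IQ-motif and EF-hand genes lie at the bottom with 92.0% lower, complement genes at the top.

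Transcription factor families held strong changes both ways. Of Klf and Egr genes 11 of 17 tested members rose and 5 fell (median log2 difference 0.82, -0.87 with housekeeping centring). Klf17 lay at 9.14 and 9.08 in controls against 4.10, 3.72, 3.33 and 2.86 in Sf1-Cre testes, at least 34.5-fold lower. Klf5 and Klf4, the latter known in Sertoli cells and spermatids, were at least 25.7-fold lower and 9.88-fold lower, and Klf3 was 13.5-fold higher. Of the Fos, Jun, Maf and Atf genes, AP-1 and related factors, 10 of 14 rose (median log2 difference 1.31, -0.38 with housekeeping centring), including Fosl2 (29.2-fold higher), Maf (18.1-fold higher) and the stress gene Atf3 (at least 1.94-fold higher). Of nuclear receptor genes 18 of 29 tested members rose and 6 fell (median log2 difference 1.16, -0.54 with housekeeping centring). Rora lay at 9.15 and 8.60 in controls against 3.68, 3.84, 3.85 and 3.84 in Sf1-Cre testes, at least 29.4-fold lower, and Nr0b2, a corepressor of bile acid and steroid genes, at 3.59 and 3.43 in controls against 7.82, 8.18, 8.45 and 8.84 in Sf1-Cre testes (a log2 difference of at least 4.32). Of Stat and E2f genes 7 of 14 tested members rose and 4 fell (median log2 difference 0.79, -0.91 with housekeeping centring): Stat5b and Stat6, which carry cytokine and hormone signals, were at least 18.3-fold higher and 16.7-fold higher, while Stat4 lay at 12.83 and 12.88 in controls against 9.81, 8.71, 8.22 and 7.64 in Sf1-Cre testes (-4.26 ± 0.82 SE). Of zinc-finger genes of the Zfp series 158 of 314 tested members rose and 81 fell (median log2 difference 0.50, -1.20 with housekeeping centring), from Zfp467 (at least 22.7-fold higher) and Zfp503 (at least 18.2-fold higher) to Zfp980 (35.4-fold lower).

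Genes with Hox symbols were tested in 17 of 36 cases. The list holds Hox genes, which pattern the body axis, and antisense noncoding genes. Of these 17 genes 8 rose and 6 fell (median log2 difference 0.65, -1.05 with housekeeping centring), or 6 and 6 with values under log2 4 set to 4. Hoxd3os1, the deepest fall of the list at -3.66, and Hoxb5os, also lower, are antisense genes. Hoxd9 lay at 8.60 and 8.48 in controls against 12.25, 12.33, 12.44 and 12.30 in Sf1-Cre testes (3.79 ± 0.13 SE) and Hoxd10 at 6.30 and 5.58 in controls against 9.80, 10.30, 9.55 and 9.50 in Sf1-Cre testes (3.85 ± 0.28 SE), Hoxc8 was at least 4.23-fold higher, and Hoxa4, expressed in male germ cells, lay at 8.55 and 8.95 in controls against 6.68, 6.54, 5.46 and 5.01 in Sf1-Cre testes (-2.83 ± 0.48 SE). Of histone and protein deacetylase genes 11 of 18 tested members rose and 3 fell (median log2 difference 0.93, -0.77 with housekeeping centring), Hdac11 being 16.2-fold lower and Sirt6 5.97-fold higher. Smarca1, an X-linked remodeller gene, was 25.5-fold higher and Suv39h2, a testis histone methyltransferase gene, 8.85-fold lower.

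Imprinted genes, expressed from 1 parental copy, mostly rose on the deposited scale: 18 of 30 tested members rose and 4 fell (median log2 difference 1.11, -0.59 with housekeeping centring). With that centring 9 rose and 16 fell. Nap1l5 lay at 2.27 and 2.94 in controls against 7.26, 8.55, 8.76 and 7.48 in Sf1-Cre testes, at least 16.1-fold higher, and Impact was at least 5.98-fold higher. Cdkn1c, a cyclin-dependent kinase inhibitor gene, went the other way at 8.84 and 8.90 in controls against 3.84, 3.50, 4.04 and 3.71 in Sf1-Cre testes, at least 29.2-fold lower, as did Asb4 (-2.50 ± 0.33 SE) and Slc22a18 (-1.94 ± 0.20 SE). Allele-specific expression was not measured. Among cyclin-dependent kinase inhibitors and targets of p53 10 of 19 tested members rose and 4 fell (median log2 difference 0.72, -0.98 with housekeeping centring). Perp, Ccng1 and Gadd45a, p53 targets, were 20.1-fold higher, 7.71-fold higher and at least 4.93-fold higher, and Cdkn2b and Cdkn2c were 5.39-fold lower and 4.92-fold lower. Ccnd2, a cyclin gene of somatic gonad growth, was 11.7-fold higher. Of 8 caspase genes 7 rose (median log2 difference 1.87, 0.18 with housekeeping centring), among them Casp12 (at least 4.21-fold higher), Casp8 (at least 6.4-fold higher) and Casp4 (at least 2.87-fold higher), and 4 of the 8 had control means under log2 4.

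Families of lipid and detoxification enzymes held rises and falls. Of genes for lipid droplet proteins, fatty acid binding proteins and elongases 14 of 19 tested members rose and 4 fell (median log2 difference 1.36, -0.34 with housekeeping centring), with Fabp12 lying at 12.23 and 12.34 in controls against 8.68, 7.80, 6.96 and 6.25 in Sf1-Cre testes (-4.86 ± 0.66 SE). Of acyl-CoA enzymes 21 of 36 tested members rose and 12 fell (median log2 difference 0.90, -0.79 with housekeeping centring): the thioesterase gene Acot1 was 54.8-fold higher and Acadm, of fatty acid oxidation, 14.5-fold higher, while Acsbg2, a synthetase of testis, was 66.6-fold lower. Of cytochrome P450 genes 17 of 28 tested members rose and 9 fell (median log2 difference 2.54, 0.84 with housekeeping centring; 9 of the 28 had control means under log2 4). Cyp4v3 and Cyp2j6, fatty acid oxidases, were at least 28.7-fold higher and at least 21.5-fold higher, and Cyp4f39 23.9-fold lower. Of apolipoprotein genes 8 of 13 tested members rose and 3 fell (median log2 difference 1.61, -0.09 with housekeeping centring), Apoe, of lipid transport between cells, lying at 5.65 and 5.36 in controls against 10.14, 10.24, 10.43 and 10.10 in Sf1-Cre testes (4.73 ± 0.23 SE), and Abca1, which exports cholesterol to apolipoproteins, was 17.8-fold higher. Of the 13 apolipoprotein genes, 6 had control means under log2 4.

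Of peroxiredoxin, thioredoxin and glutathione peroxidase genes 18 of 30 tested members rose and 7 fell (median log2 difference 1.27, -0.43 with housekeeping centring). Gpx3, the plasma glutathione peroxidase gene, lay at 5.89 and 5.61 in controls against 11.13, 11.43, 11.57 and 10.83 in Sf1-Cre testes (5.49 ± 0.22 SE), while Gpx6 was 36.6-fold lower and Txndc2, a sperm thioredoxin gene, 35.2-fold lower. Of glutathione transferase genes 14 of 22 tested members rose and 6 fell (median log2 difference 1.23, -0.47 with housekeeping centring), with Gstt1 19.7-fold higher and Gstt4 25.2-fold lower. Of sulfotransferase genes 16 of 21 tested members rose and 4 fell (median log2 difference 1.68, -0.02 with housekeeping centring; 8 had control means under log2 4). Chst11, of chondroitin sulfation, was at least 23.0-fold higher, the estrogen sulfotransferase gene Sult1e1 26.8-fold higher, and Ndst3, of heparan sulfate, 24.1-fold lower. Of glycosyltransferase genes 34 of 57 tested members rose and 16 fell (median log2 difference 0.83, -0.87 with housekeeping centring), from Mgat4e (at least 39.3-fold lower) to the polysialyltransferase gene St8sia4 (19.9-fold higher). Of phosphodiesterase genes 6 of 19 tested members rose and 10 fell (median log2 difference -0.61, -2.30 with housekeeping centring): Pde5a, which degrades cyclic GMP, lay at 5.62 and 5.69 in controls against 10.78, 10.66, 10.51 and 11.13 in Sf1-Cre testes (5.12 ± 0.20 SE), Pde7b was at least 9.03-fold higher and Pde1a 16.7-fold lower.

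Families of channels and pumps moved both ways. Of calcium channel, Trp and Catsper genes 11 of 32 tested members rose and 18 fell (median log2 difference -0.95, -2.64 with housekeeping centring), 7 rising with probe sets averaged. Catsper1 and Catsper3, subunits of the calcium channel that sperm need to swim in hyperactivated fashion, were 37.9-fold lower and 30.1-fold lower, and Trpm8, the cold receptor gene, at least 25.5-fold lower. Of potassium channel genes 16 of 42 tested members rose and 18 fell (median log2 difference -0.22, -1.92 with housekeeping centring), with Kcnt1 at least 48.6-fold higher and Kcnip2 at least 48.5-fold lower. Aquaporin genes, for water and glycerol channels, gave 4 rises, or 2 with values under log2 4 set to 4, and 4 falls in 8 tested (median log2 difference -0.84, -2.53 with housekeeping centring). Aqp7, of spermatids, lay at 11.08 and 10.88 in controls against 5.67, 4.96, 4.62 and 4.22 in Sf1-Cre testes and Aqp5 at 3.81 and 5.39 in controls against 8.81, 9.42, 10.85 and 10.84 in Sf1-Cre testes, opposite in direction; Aqp11 was 9.51-fold lower. Of ion pump genes 17 of 31 tested members rose and 6 fell (median log2 difference 0.50, -1.19 with housekeeping centring). Atp1a4, the sperm sodium pump, and Atp6v1e2, a testis subunit of the proton pump, were 47.0-fold lower and 39.4-fold lower, and Atp6v0d2, a proton pump subunit of osteoclasts and macrophages, at least 2.98-fold higher. Of Abc transporter genes 19 of 33 tested members rose and 9 fell (median log2 difference 0.97, -0.73 with housekeeping centring), with the bile salt exporter gene Abcb11 at least 3.59-fold lower.

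Signalling classes were mixed. Of 13 formed, 8 had a larger share of members called higher than all tested genes and 5 a smaller one. Among the latter, 4 of 11 tested members rose and 5 fell in the Camk and calmodulin class of calcium signalling (median log2 difference -0.38, -2.07 with housekeeping centring), and 8 of 21 tested members rose and 10 fell in the dual-specificity phosphatase class, which switches off Map kinases (median log2 difference -0.09, -1.78 with housekeeping centring). Of the phosphatase regulators of the Ppp1r series 14 of 33 tested members rose and 14 fell (median log2 difference 0.11, -1.59 with housekeeping centring, and -0.31 with probe sets averaged), of kinase anchors of the Akap series 6 of 15 tested members rose and 5 fell (median log2 difference 0.35, -1.35 with housekeeping centring), and of Rgs genes, which turn off G proteins, 5 of 11 tested members rose and 2 fell (median log2 difference 0.40, -1.29 with housekeeping centring). Of Notch pathway genes 13 of 16 tested members rose and 2 fell (median log2 difference 1.56, -0.14 with housekeeping centring; 5 of 16 had control means under log2 4). Hey2, a Notch target gene, lay at 3.78 and 3.89 in controls against 7.77, 8.49, 8.66 and 8.25 in Sf1-Cre testes, at least 19.6-fold higher, Hes6 rose by log2 3.33 ± 0.22 SE, the glycosyltransferase gene Lfng, which tunes Notch receptors, was at least 2.33-fold higher, and the ligand gene Dll3 was 4.12-fold lower. Of semaphorin, plexin and neuropilin genes, which guide axons and vessels, 18 of 25 tested members rose and 5 fell (median log2 difference 1.86, 0.17 with housekeeping centring), 3 falling without control replicate 1 or without control replicate 2. Control means lay under log2 4 in 5 of the 25. Sema6d was 13.9-fold higher, Plxnb1 15.8-fold higher and Plxna2 11.2-fold lower. Of Socs and Spry genes, feedback inhibitors of cytokine and growth factor receptors, 9 of 12 rose (median log2 difference 1.45, -0.25 with housekeeping centring), Socs2 lying at 7.15 and 6.62 in controls against 11.44, 11.79, 12.08 and 11.82 in Sf1-Cre testes (4.90 ± 0.23 SE) and Socs3, under log2 4 in the controls, rising by a log2 difference of at least 4.17. Of tumour necrosis factor ligand and receptor genes 7 of 10 rose (median log2 difference 1.47, -0.22 with housekeeping centring; 5 had control means under log2 4), with Tnfrsf1a 10.1-fold higher.

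Innate immune and lysosomal genes rose in the same arrays as the macrophage markers, whose part was not tested. Of complement genes, which tag cells and microbes for removal, 14 of 17 tested members rose and 3 fell (median log2 difference 4.32, 2.62 with housekeeping centring; 6 had control means under log2 4). The class median was 4.42 and 4.64 in controls against 8.37, 8.48, 8.27 and 8.70 in Sf1-Cre testes. Masp1, a protease that starts the lectin branch, lay at 4.74 and 5.18 in controls against 10.81, 10.86, 11.08 and 11.07 in Sf1-Cre testes, 63.9-fold higher, and Cfi, which inactivates C3b, at 2.59 and 2.32 in controls against 8.32, 8.28, 9.21 and 8.70 in Sf1-Cre testes, at least 24.7-fold higher. C1qc, of the first component and itself a macrophage marker here, was 29.1-fold higher. C8b (-2.06 ± 0.62 SE) and C8g (-2.03 ± 0.37 SE), of the membrane attack complex, fell, but C8b missed the threshold without control replicate 1 or 2 (adjusted p 0.0665 and 0.0756). Toll-like receptor pathway genes rose in 10 of 10 tested cases (median log2 difference 3.52, 1.82 with housekeeping centring), though 8 had control means under log2 4. Tlr3, a sensor of double-stranded RNA, lay at 5.42 and 4.35 in controls against 9.04, 9.09, 9.04 and 9.13 in Sf1-Cre testes (4.19 ± 0.27 SE), and Tlr1 and Ly96 were at least 7.97-fold higher and at least 13.5-fold higher. Of Fc and related receptor genes 7 of 10 rose (median log2 difference 3.65, 1.95 with housekeeping centring), among them Fcgrt, which salvages antibodies (34.4-fold higher), Fcgr2b (22.8-fold higher) and Fcer1g (16.3-fold higher). Control means lay under log2 4 in 3 of these 10 genes. Clec7a, a fungal receptor gene, was at least 7.43-fold higher.

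Of MHC class I and antigen-processing genes 11 of 13 rose (median log2 difference 1.02, -0.68 with housekeeping centring), including the peptide transporter gene Tap1 (at least 7.12-fold higher) and H2-D1 (13.8-fold higher). Control means lay under log2 4 in 6 of the 13. Of galectin genes 7 of 8 tested members rose and 1 fell (median log2 difference 1.17, -0.53 with housekeeping centring), with Lgals3 19.3-fold higher. In 3 of the 8 the control mean lay under log2 4. The few falls in the Tnf, Socs, Fc and MHC class I lists, at most 2 in each on the deposited scale, differed between settings, and housekeeping centring gave 4, 4, 3 and 6. Of genes for lysosomal hydrolases and membrane proteins 22 of 26 tested members rose and 1 fell (median log2 difference 2.43, 0.73 with housekeeping centring). Their median level was 7.43 and 6.98 in controls against 9.47, 9.70, 9.83 and 10.15 in Sf1-Cre testes, with all mutant arrays above the controls. Tpp1, a peptidase gene, lay at 7.41 and 6.86 in controls against 11.08, 11.40, 11.60 and 11.61 in Sf1-Cre testes (4.29 ± 0.22 SE), Laptm5, of blood cell lysosomes, was 15.4-fold higher, Neu1, a sialidase gene, at least 7.54-fold higher and the sulfatase gene Arsa 5.86-fold lower.

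In both lists of matrix genes described here most tested members rose. The other matrix lists had medians of 1.61 (-0.09 with housekeeping centring) for Fbln, Efemp and Ltbp genes and 1.23 (-0.47) for Lox, Thbs and Tnc genes. With that centring 4 rose and 7 fell in each of these other lists. Of small leucine-rich proteoglycan genes 6 of 8 tested members rose and 1 fell (median log2 difference 3.52, 1.82 with housekeeping centring). Ogn lay at 6.64 and 6.65 in controls against 11.11, 11.03, 11.06 and 11.22 in Sf1-Cre testes (4.46 ± 0.12 SE) and Omd was 24.6-fold higher, while Epyc lay at 9.94 and 9.99 in controls against 8.72, 7.36, 7.24 and 6.80 in Sf1-Cre testes (-2.44 ± 0.51 SE). Of Adamts proteases and Timp inhibitors 10 of 14 tested members rose and 3 fell (median log2 difference 2.44, 0.75 with housekeeping centring). Control means lay under log2 4 in 5 of the 14. Timp1, an X-linked metalloproteinase inhibitor gene, lay at 4.49 and 5.22 in controls against 9.76, 9.70, 9.69 and 9.77 in Sf1-Cre testes (4.88 ± 0.21 SE), and Adamts10 was 20.3-fold higher.

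The 4 Sf1-Cre arrays differed in how far they lay from the controls. Among 1274 genes called lower by log2 3 or more, replicate 1 had the highest mutant level in 1096 (86.0%) and replicate 4 the lowest in 910 (71.4%). Their median differences from the control mean were -3.62 for replicate 1, -4.26 for replicate 2, -4.62 for replicate 3 and -4.90 for replicate 4. Among 1098 genes called higher as far, replicate 1 was the lowest mutant in 625 (56.9%) and replicate 4 the highest in 612 (55.7%), with medians of 3.51, 3.61, 3.80 and 3.95. Replicate 1 was thus nearest to the controls in both directions. The median SD over arrays was 0.239 in the Sf1-Cre group and 0.136 in the controls.

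The 10 genes with the widest spread among Sf1-Cre arrays, at a mean of log2 6 or above, included genes of the epididymis and of blood cells; only their levels are given. Spink8, a protease inhibitor gene of the epididymis, lay at 6.87 and 3.11 in controls against 12.05, 5.79, 10.49 and 6.46 in Sf1-Cre testes. Defb2, a defensin gene, lay at 4.10 and 3.02 in controls against 11.35, 2.42, 7.36 and 2.92 in Sf1-Cre testes, and Ces5a, a carboxylesterase gene of the epididymis, at 8.12 and 7.83 in controls against 10.43, 3.36, 8.18 and 3.80 in Sf1-Cre testes. In these 3 genes replicate 1 was the highest mutant and replicate 3 the next. S100a9, a calcium-binding protein gene of neutrophils, lay at 3.11 and 3.45 in controls against 12.17, 4.90, 4.33 and 4.22 in Sf1-Cre testes, standing out on replicate 1 alone. Cd52, of lymphocytes and epididymal epithelium, and Ceacam10 were also highest on replicates 1 and 3. Svs5, a seminal vesicle gene, lay at 5.52 and 5.17 in controls against 6.33, 5.61, 6.24 and 11.38 in Sf1-Cre testes, high on replicate 4. Myb lay at 5.97 and 5.80 in controls against 9.54, 4.54, 5.96 and 4.58 in Sf1-Cre testes. H1f7, the spermatid linker histone gene, lay at 12.68 and 12.40 in controls against 7.86, 6.30, 5.89 and 4.05 in Sf1-Cre testes and Ttll1, a tubulin polyglutamylase gene, at 9.81 and 6.79 in controls against 7.43, 9.41, 6.19 and 5.74 in Sf1-Cre testes. Of 7 epididymal markers on the array, Lcn5 and Lcn8 stayed under log2 4 throughout, and the summed intensity was 429.8 and 554 on the control arrays against 403 to 4700.3 on the mutant arrays. Without the 3 arrays of the series with Spink8 at log2 10 or above, 10289 genes were called, 5956 higher and 4333 lower.

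**Figure D5:**
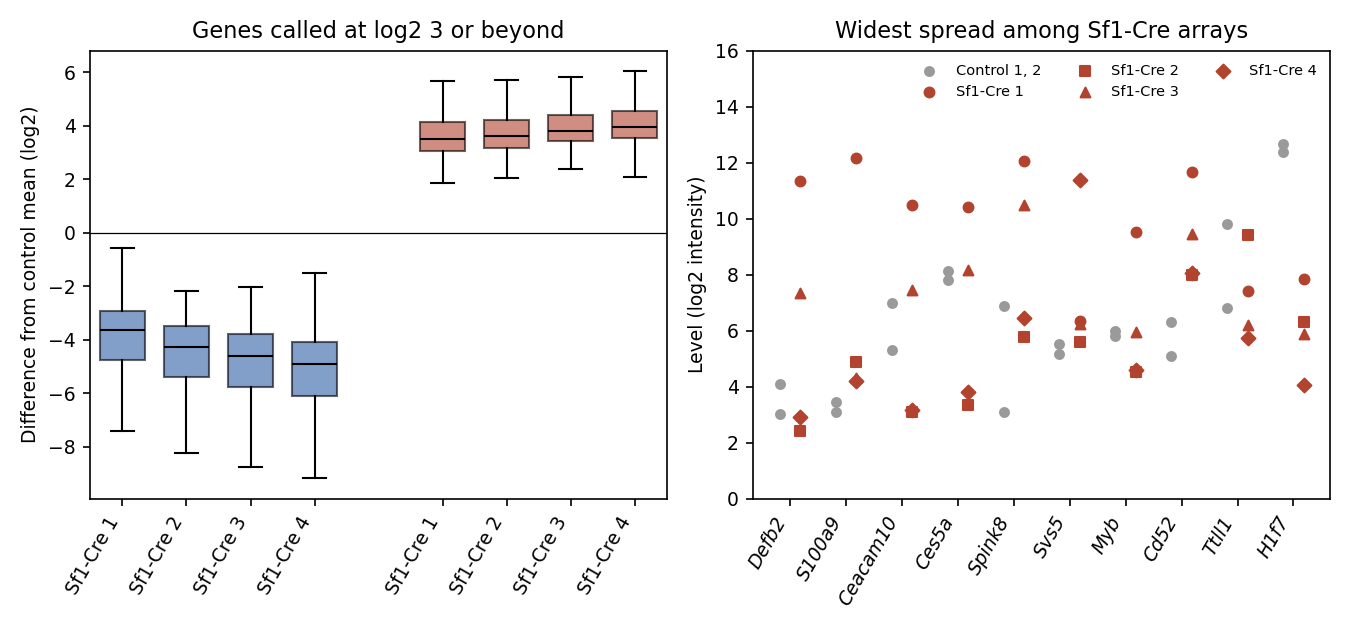
Left, difference of each Sf1-Cre array from the control mean (log2) over 1274 genes called lower and 1098 called higher by log2 3 or more (line, median; box, from the lower to the upper quartile; whiskers, to the last gene within 1.5 box lengths). Right, levels (log2 intensity) of the 10 genes with the widest spread among Sf1-Cre arrays, by array. Replicate 1 lies nearest to the controls on the left and is the highest mutant array for 8 of the 10 genes on the right.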

How the data were processed

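Levels are GCRMA intensities on a linear scale that the authors deposited in a single matrix, per the submitters' processing notes; its version and settings: not given in the sources used here. They were taken to log2. Of 45101 probe sets, 34958 carried 1 gene symbol in the platform annotation, 932 several and 9211 none; 34754 were updated through Entrez identifiers. Each of 18194 genes was represented by its probe set with the highest mean over the 8 arrays, and 13802 genes at log2 4 or above on at least 2 arrays were tested; 4392 were not.

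Group means of all 3 groups were fitted on the 8 arrays with limma (version 3.58.1, under R 4.3.3 and the data.table package, version 1.17.8; figures with Python 3.11.15, pandas 2.3.3 and matplotlib 3.10.9), with Benjamini-Hochberg adjustment over all tested genes and a threshold of 0.05. Residual degrees of freedom were 5 and prior degrees of freedom 2.73. On simulated data with 13802 genes, 41% of changes of log2 1 and 82% of changes of log2 2 were recovered. Of the calls made there, 4.65% were false. Whether these shares hold for the measured arrays, where 79.8% of tested genes were called, was not tested. The small number of arrays, 2 of them controls, limits the precision. Where a group mean lay under log2 4 (intensity 16), folds were computed against that level and are written as at least. Fitted differences with an SE and class medians were not bounded in this way. The labels call the replicates biological, and p-values measure the spread between these arrays. The arrays were not treated as paired by replicate number. Deviations of same-numbered control and Sf1-Cre arrays correlated at 0.020 and -0.144. With 2 controls, whose deviations mirror each other, this check cannot tell whether the arrays were paired. The mutants' description field also calls them wild type; the genotype field was followed.

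The members, gene classes, pairs and motifs were chosen with earlier results of these data known. Named genes, provisional symbols passed over, are Dmrt1, the largest rises and falls with groups that do not overlap (over all genes, per class, on the X and on the Y), both genes of each pair, and the 10 genes of widest spread among Sf1-Cre arrays. The text uses fewer than this rule allows, chosen with the values known, and genes whose probe sets disagreed in sign were mostly passed over. The fat cell markers were chosen after their values were seen. Promoters come from RefSeq (GRCm38.p6). Alternatives were quantile normalization, housekeeping centring, other filters and moderation, array weights, only the 6 arrays, the mean of all probe sets, values under log2 4 set to 4, a replicate block and each array left out.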

Additional observations from a re-analysis of the deposited data

Results flagged for a closer look

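In 10 of 204 values checked (4.90%), 1 of the 4 Sf1-Cre arrays stood apart from the other 3. Its gap to the nearest exceeded 0.829 of the group's range. Chance alone gives about 1 in 20 for values not picked by their spread. The values checked took in the 10 genes of widest spread on these same arrays, S100a9 and Svs5 among them, so the 2 rates are not alike. Replicate 1 was the one apart in 5, replicate 4 in 3, and replicates 2 and 3 in 1 each.

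On replicate 1, S100a9 lay at 12.17 (log2 intensity) against 4.22 to 4.90 on the others, Pdha1 at 9.61 against 10.08 to 10.14, and Rora at 3.68 against 3.84 to 3.85. On the same array Trpm8 lay at 3.03 against 2.44 to 2.54 and Abcb11 at 2.44 against 1.86 to 1.94, all of these under log2 4. On replicate 4, Svs5 lay at 11.38 against 5.61 to 6.33, Capza2 at 10.03 against 9.79 to 9.81, and H2-D1 at 10.97 against 10.66 to 10.67. On replicate 2, Ly96 lay at 8.33 against 7.50 to 7.60. On replicate 3, Hspa8 lay at 13.63 against 13.70 to 13.71. S100a9 and Svs5 had the widest gaps of these.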

How the results depend on the processing

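Over 19 alternatives, the number of genes called, and those called higher and lower, stayed within 1.5 times the values given, apart from housekeeping centring, which gave 2043 higher and 9424 lower. Leaving out each array in turn gave 9746 to 11047 called genes, 5760 to 6419 higher, 3963 to 4628 lower, and a Dmrt1 difference of -1.22 to -0.94. A fit with the replicate number as a block called 9796 genes, 5763 higher and 4033 lower. Whether the numbers pair the arrays could not be told.

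Of 193 genes named with a test, directions turned in 6. With housekeeping centring Uba1y was -0.87, Eif2s3y -0.68, Utp14a -1.62, Hspa8 -1.27 and Pgk1 -0.0059. Pgk1 belongs to the set that was centred on. Utp14a was otherwise near 0, at -0.14 with quantile normalization, -0.16 with the replicate block, -0.036 without the arrays high in Spink8, and from -0.063 to 0.21 with each array left out in turn. Cstf2t was 0.0029 with quantile normalization, 0.017 with array weights, and from -0.058 to 0.038 with each array left out in turn. The cause was not tested. The centring also ended the calls of Cetn2, Cstf2 and Capza2 and made calls of Cstf2t (-1.71) and Tbpl1 (-1.99). The replicate block ended those of Usp9y, Cetn1, Ppp3r2, Hspa8 and Hspa2 (adjusted p 0.127, 0.150, 0.0502, 0.0679 and 0.0594).

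Signal near background limits genes under log2 4, whose folds are bounds.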

Other observations

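Further classes, not described above, moved as follows, with no test of the class. Cilium and centrosome genes fell: 23 of 24 tested Cfap genes, of cilia and flagella, were called lower and 0 higher (median log2 difference -2.34, -4.04 with housekeeping centring), and 27 of 37 Cep genes, of the centrosome, lower and 2 higher (-1.16, -2.85). Of coiled-coil genes of the Ccdc series 34 rose and 65 fell in 112 (-1.28, -2.98). Of S100 genes, calcium-binding proteins, 7 of 10 rose and 1 fell (2.76, 1.06), and of aldehyde dehydrogenase genes 15 of 20 rose and 2 fell (1.45, -0.25). Of Rps genes, of the small ribosomal subunit, 18 of 27 rose and 0 fell (0.75, -0.95).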
